A study of Mus musculus with 9 samples.

Results

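Serpins are a family of proteins that share 1 fold, and most of them are protease inhibitors. An inhibitory serpin offers its reactive loop as bait to a serine protease, or in some members to a cysteine protease. The protease cleaves the loop and stays covalently attached, so both partners are used up. Secreted serpins restrain clotting, fibrinolysis and neutrophil enzymes, clade b serpins act mostly inside cells, and a few members carry hormones or chaperone collagen without inhibiting any protease. The members described here were all probe sets whose annotation gives a single gene symbol starting with Serpin. There were 56 such probe sets for 40 genes. For each gene the probe set with the largest average signal over the 9 arrays was taken, and 12 of the 40 genes (30%) exceeded an array's 40th percentile in at least 2 arrays. These 12 stood among 12976 genes tested, of 18193 genes with a single-symbol probe set. The other 28 genes did not pass, and 3 further serpin probe sets carried several symbols and were left out.

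The cells were preSC, preneoplastic neuroendocrine cells cultured from mouse lung, in which Adeno-Cre had deleted conditional Rb, p53 and p130 alleles. The mice were of mixed C57BL/6 and 129/Sv background, and all 4 groups share these deletions. There were 3 arrays of preSC, and 2 arrays each of preSC that had received retroviral L-Myc, retroviral C-Myc or retroviral N-Myc, and the labels used here name no empty-vector group, clone or passage. All values are log2 RMA signals on Affymetrix mouse arrays, where 1 unit is a doubling of signal, and the 40th percentile lay between 5.28 and 5.34.

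Some properties of the arrays touch every result. The transduced gene was high where labelled. The Mycl probe set 1422087_at read 11.79 and 12.74 on the L-Myc arrays and 5.39 to 8.52 elsewhere, and the Mycn probe set 1425922_a_at read 8.46 and 9.05 on the N-Myc arrays and 5.79 to 6.39 elsewhere. Myc (1424942_a_at) read 10.68 and 11.22 on the C-Myc arrays, but also 11.40 and 11.96 on the N-Myc arrays, and another Mycn probe set, 1425923_at, was high on all 6 transduced arrays (11.07 to 13.54). Of 12 listed neuroendocrine markers, 11 had a probe set and all 11 passed the filter, with array means of 10.37 to 11.01. Of these 11, 3 rose in each comparison with preSC, and 2 fell in L-Myc, 6 in C-Myc and 6 in N-Myc cells, where 13.5%, 23.5% and 28.8% of all genes tested were called in those comparisons. Of the markers of other cell types, Vwf (endothelium) and Ager (alveolar cells) fell in all 3 comparisons. Vwf was 1 of 2 endothelial markers tested, Kdr did not pass, and Pecam1, Cdh5, Tek, Tie1 and Emcn were below the filter. Ager was 1 of 5 club, alveolar and ciliated cell markers tested, and the other 4 did not pass. Among those, Sftpc read 6.06 to 8.42 in preSC, 6.17 to 10.68 in L-Myc and C-Myc, and 10.59 and 11.10 in N-Myc. Cd3e (T cells) rose by 0.48 in N-Myc cells and Ttr (liver) fell by 2.49 in C-Myc cells, and no fibroblast marker passed the test. The part of these markers in the results was not tested. Replicates were not equally close. A difference over 2-fold was seen at 47 probe sets between preSC 1 and 2 and at 13 between the N-Myc arrays, against 1807 to 3035 for preSC 3 against the other preSC, for the L-Myc pair and for the C-Myc pair. The mean of 3 probe sets for 18S ribosomal RNA was 12.88 to 13.91 in preSC and 8.22 to 9.35 in the transduced arrays, and the spike-in Dap differed between its 5′ and 3′ probe sets by -3.66 to -3.40 in preSC and by -1.68 to -1.51 in the transduced arrays. A difference in RNA preparation or labelling and an effect of transduction cannot be told apart in any comparison with preSC. The labels also name the RNA of preSC and L-Myc cells as polyA RNA and that of C-Myc and N-Myc cells as total RNA, a split that lies between the groups in every comparison of C-Myc or N-Myc with preSC or L-Myc. The protocols in the same labels speak of total RNA for all arrays.

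Of the 12 serpins that passed, 5 belong to clade b, 3 to clade a, 2 to clade f, and 1 each to clades h and i. Clade b had 18 genes with a probe set and clade a had 14. The single genes of clades c, d and g, antithrombin (Serpinc1), heparin cofactor II (Serpind1) and C1 inhibitor (Serping1), did not pass. Among the 28 genes that did not pass, values ran from 3.14 to 5.55, and 26 were above the filter on no array. The other 2, Serpinb9b and Serpind1, were above it on 1 array each, at most at 5.55 and 5.33. Just inside the filter lay Serpina11, above it on 2 arrays (4.85 to 5.36 over all arrays), and Serpina9, above it on 3. The fibroblast markers Col1a1, Col1a2, Col3a1, Lum and Postn, the leukocyte markers Ptprc, Cd68, Itgam and Cd79a, and the liver genes Alb and Ahsg failed the same filter. Other genes of those lists passed, 5 of 10 for fibroblasts, 3 of 7 for leukocytes and 2 of 4 for liver, and some were bright on some or all arrays. Over the 9 arrays Dcn (decorin, of fibroblasts) read 5.29 to 10.32, Lyz2 (lysozyme, of macrophages and alveolar cells) 5.61 to 12.31, and Ttr (transthyretin, of liver) 8.59 to 11.95.

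The promoters of the clade b genes with the widest spread over arrays are shown first. Serpinb9 among them did not pass the test in any comparison, and the windows of Serpinb6a, which passed in L-Myc cells, are not shown. Each window runs from 250 bases before to 50 bases after a transcript start in RefSeq, build GRCm38.p6, 5′ to 3′ on the gene's strand. Capitals mark matches to any of 4 motifs searched on both strands: the E-boxes CACGTG and CAGCTG, the AP-1 type motif TGANTCA, and an interferon-type motif of GAAA, any 2 bases and GAAA. Where a motif lies on the opposite strand, its reverse complement stands in capitals.

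Serpinb12, chr1:106934199-106934498, + strand: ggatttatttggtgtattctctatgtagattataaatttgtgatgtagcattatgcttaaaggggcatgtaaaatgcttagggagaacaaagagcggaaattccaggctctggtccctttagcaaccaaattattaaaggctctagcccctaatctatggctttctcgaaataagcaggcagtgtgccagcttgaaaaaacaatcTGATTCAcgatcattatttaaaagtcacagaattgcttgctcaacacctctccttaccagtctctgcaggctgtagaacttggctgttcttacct

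Serpinb12, chr1:106938707-106939006, + strand: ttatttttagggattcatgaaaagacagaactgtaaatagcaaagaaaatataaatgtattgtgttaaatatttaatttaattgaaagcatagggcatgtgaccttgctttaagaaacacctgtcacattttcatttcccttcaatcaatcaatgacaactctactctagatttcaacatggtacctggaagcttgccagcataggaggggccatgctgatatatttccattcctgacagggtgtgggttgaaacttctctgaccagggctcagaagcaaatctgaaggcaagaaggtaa

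Serpinb8, chr1:107589756-107590055, + strand: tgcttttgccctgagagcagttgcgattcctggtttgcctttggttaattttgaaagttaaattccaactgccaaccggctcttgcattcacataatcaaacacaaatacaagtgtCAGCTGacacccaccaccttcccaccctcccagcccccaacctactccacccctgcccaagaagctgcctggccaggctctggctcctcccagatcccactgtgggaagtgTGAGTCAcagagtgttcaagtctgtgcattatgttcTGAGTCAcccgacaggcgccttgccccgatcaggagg

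Serpinb9, chr13:33004291-33004590, + strand: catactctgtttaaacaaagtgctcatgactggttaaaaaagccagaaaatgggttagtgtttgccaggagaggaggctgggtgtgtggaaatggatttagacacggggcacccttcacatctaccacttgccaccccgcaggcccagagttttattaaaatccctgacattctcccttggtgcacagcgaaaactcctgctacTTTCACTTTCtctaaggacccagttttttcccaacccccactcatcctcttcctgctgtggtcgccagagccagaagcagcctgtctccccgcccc

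The first Serpinb12 window holds 1 TGANTCA match and the second holds none of the 4 motifs. Serpinb8 holds 2 TGANTCA matches and 1 CAGCTG, and Serpinb9 holds 1 match to the interferon-type motif. RefSeq windows were found for 10 of the 12 genes, 13 windows in all; Serpina9 and Serpina10 had none in the table. CACGTG, the E-box that MYC and MAX bind, was in 0 of the 13 windows and in 7.15% of all 32851 windows of that length. CAGCTG was in windows of 3 genes (Serpinb6a, Serpinb6e and Serpinb8; 16.3% of all windows), TGANTCA in 2 (Serpinb12 and Serpinb8; 7.81%) and the interferon-type motif in 2 (Serpinb6a and Serpinb9; 3.44%). These gene counts take a match in any window of a gene, and some genes have more than 1 window. The percentages are of single windows, so the counts and percentages do not compare directly. These matches describe the letters in the windows and are no evidence of binding.

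Against preSC, 2 serpins passed the test in each transduced group, from a set of 3 genes. Serpinb8 was lower in all 3 transduced groups. Serpinb12 was higher in C-Myc and N-Myc cells. Serpinb6a was lower in L-Myc cells. In RNA from whole cultures, fewer cells with a transcript and less of it per cell cannot be told apart. The 3 comparisons share the same preSC arrays, so these lists are not independent of each other.

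In L-Myc cells, 0 of 12 serpins rose and 2 fell (16.7% called), where 13.5% of all genes tested were called, 5.44% as higher and 8.03% as lower. In C-Myc cells 1 rose and 1 fell (16.7%), where 23.5% of all genes were called, 9.91% as higher and 13.6% as lower. In N-Myc cells 1 rose and 1 fell (16.7%), where 28.8% of all genes were called, 12.5% as higher and 16.4% as lower. In none of the 3 comparisons did the share of serpins called stand above the background by more than 1 gene. The median difference over the 12 serpins was -0.16, -0.14 and -0.06 in L-Myc, C-Myc, then N-Myc cells, beside -0.04, -0.05 and -0.03 over all genes tested. Centring each array on the median of the genes tested adds 0.14, 0.17 and 0.17 to every difference in those groups, which takes small differences, the serpin medians among them, close to or past 0. It moved the share of all called genes that were higher from 40.4% to 62% in L-Myc, from 42.2% to 63.4% in C-Myc and from 43.2% to 63.7% in N-Myc cells. With it Serpinb8 still fell in all 3 groups and Serpinb12 still rose in C-Myc and N-Myc cells, while Serpinb6a lost its call. Calls here and below are from limma's moderated test over all 9 arrays, taken in both directions, with p adjusted by the Benjamini-Hochberg method over 12976 genes and a threshold of 0.05.

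**Figure D1:**
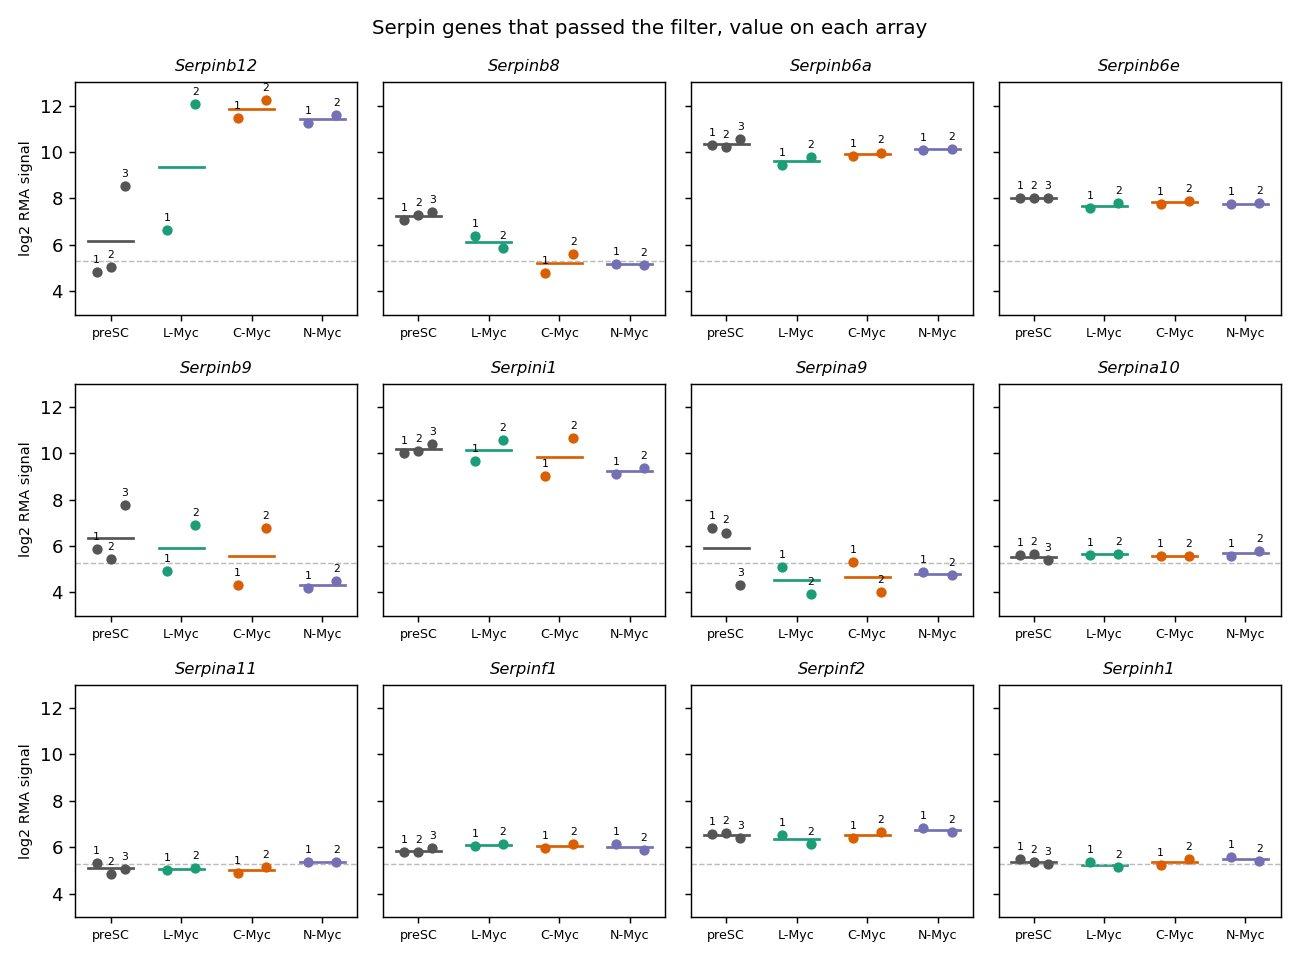
The log2 RMA signal of each of the 12 serpin genes that passed the filter is plotted by group, with 1 point per array (numbered by replicate), a bar at the group mean and a dashed line at the lowest of the 9 arrays' filter values. Serpinb12 spans 4.84 to 12.26 over the arrays, whereas Serpina10, Serpina11, Serpinf1, Serpinf2 and Serpinh1 stay nearly level.

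Serpinb12, an intracellular serpin whose human counterpart inhibits trypsin-like proteases, had the widest range of all members. Its probe set 1429297_at read 4.84, 5.05 and 8.54 on preSC 1, 2 and 3. It read 6.66 and 12.09 on L-Myc 1 and 2, 11.46 and 12.26 on C-Myc 1 and 2, and 11.26 and 11.61 on N-Myc 1 and 2. All C-Myc and N-Myc arrays therefore lay above all preSC arrays, L-Myc 2 lay with them, and L-Myc 1 lay between the lower preSC arrays and preSC 3. Group means were 6.15 ± 2.08 (SD, n = 3) in preSC, 9.37 ± 3.84 (n = 2) in L-Myc, 11.86 ± 0.57 (n = 2) in C-Myc and 11.43 ± 0.24 (n = 2) in N-Myc. The difference from preSC was 5.71 for C-Myc (SE 1.64, 95% interval 1.89 to 9.53, adjusted p = 0.0427), which is 52.4-fold. It was 5.29 for N-Myc (SE 1.64, interval 1.47 to 9.11, adjusted p = 0.0474), which is 39.1-fold. For L-Myc it was 3.23 (SE 1.64, interval -0.60 to 7.05, adjusted p = 0.230) and did not pass. On preSC 1 and 2 the gene was under the filter, where RMA compresses differences, so the folds have a soft lower end.

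The Serpinb12 calls were close to the threshold and depended on single arrays. For C-Myc the call was lost without preSC 1 (5.06, adjusted p = 0.116), preSC 2 (5.17, 0.120), C-Myc 1 (6.11, 0.119), C-Myc 2 (5.31, 0.125) or either N-Myc array (5.71, 0.0759). For N-Myc it was lost without preSC 1 (4.64, adjusted p = 0.124), preSC 2 (4.74, 0.126), either C-Myc array (5.29, 0.0585), N-Myc 1 (5.46, 0.176) or N-Myc 2 (5.12, 0.192).

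Serpinb8, an intracellular serpin whose human counterpart inhibits the proprotein convertase furin, was the member with the firmest difference. Its probe set 1422776_at read 7.08, 7.29 and 7.41 on preSC 1, 2 and 3. It read 6.38 and 5.88 on L-Myc 1 and 2, 4.79 and 5.62 on C-Myc 1 and 2, and 5.19 and 5.14 on N-Myc 1 and 2. Every transduced array lay below every preSC array, and both L-Myc arrays lay above all C-Myc and N-Myc arrays. Group means were 7.26 ± 0.17 (SD, n = 3) in preSC, 6.13 ± 0.35 (n = 2) in L-Myc, 5.20 ± 0.58 (n = 2) in C-Myc and 5.16 ± 0.034 (n = 2) in N-Myc. Serpinb8 fell by 2.06 in C-Myc cells (SE 0.26, adjusted p = 0.00407) and fell by 2.10 in N-Myc cells (SE 0.26, adjusted p = 0.00372). It fell by 1.13 in L-Myc cells (SE 0.26, adjusted p = 0.0331). As C-Myc 1 and both N-Myc arrays lay below the filter, the size of the fall is compressed there.

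The C-Myc and N-Myc calls for Serpinb8 passed with any single array left out, with adjusted p of at most 0.0215 and 0.0425. The L-Myc call was lost without preSC 1, 2 or 3 (-1.22, -1.12 and -1.05, adjusted p = 0.0699, 0.0981 and 0.0791), without L-Myc 1 or 2 (-1.38 and -0.88, adjusted p = 0.0535 and 0.167) and without either N-Myc array (-1.13, adjusted p = 0.0659).

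Both genes have a second probe set, and its values followed the first. For Serpinb12, 1432173_at read 4.65 to 6.45 in preSC, 5.63 and 9.65 in L-Myc, 8.93 and 9.81 in C-Myc, with N-Myc at 8.66 and 8.93. It was higher than preSC by 4.02 in C-Myc (SE 1.07, adjusted p = 0.0263 over 24244 probe sets) and by 3.44 in N-Myc (SE 1.07, adjusted p = 0.0400), and by 2.29 in L-Myc (SE 1.07, adjusted p = 0.167), which did not pass. L-Myc 1 and 2 were again far apart.

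For Serpinb8, 1458882_at read 7.58 to 8.01 in preSC, 6.72 and 5.13 in L-Myc, 4.07 and 4.82 in C-Myc, with N-Myc at 4.05 and 4.34. It fell in each group, with differences of -1.87 in L-Myc (SE 0.44, adjusted p = 0.0216), -3.35 in C-Myc (SE 0.44, adjusted p = 0.00188) and -3.60 in N-Myc cells (SE 0.44, adjusted p = 0.00148). On neither probe set did the preSC and transduced arrays overlap. Probe sets of 1 gene read the same RNA samples and are not replicates.

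**Figure D2:**
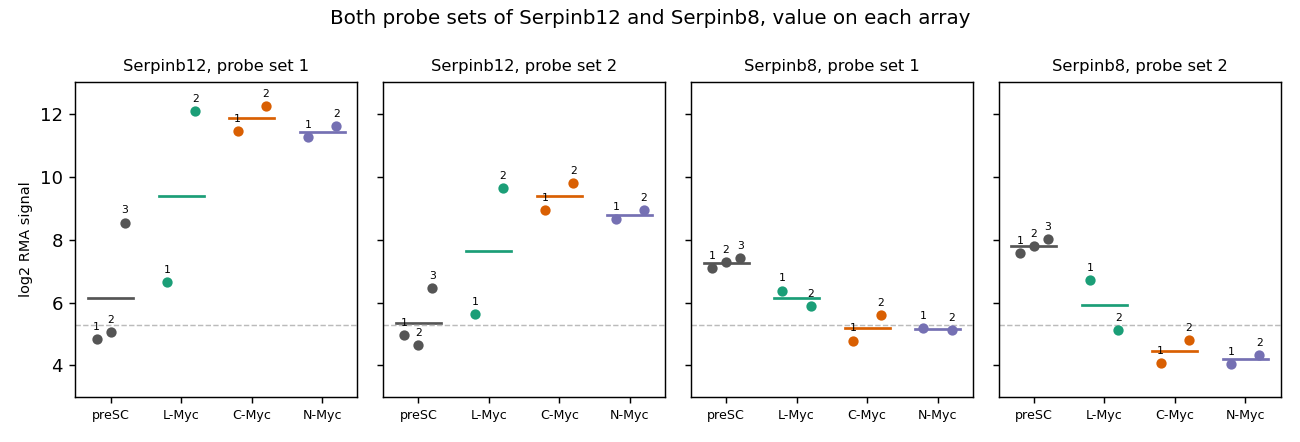
The 2 probe sets of Serpinb12 and of Serpinb8 are plotted as log2 RMA signal per array, with group means as bars and the lowest filter value as a dashed line. On both Serpinb12 probe sets L-Myc 1 and L-Myc 2 stand far apart (6.66 and 12.09, 5.63 and 9.65), and on both Serpinb8 probe sets preSC lies above every transduced array.

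Serpinb6a, which in mouse blocks cathepsin G among other serine proteases, had high signal in every array. Its probe set 1450138_a_at read 10.30, 10.22 and 10.56 on preSC 1, 2 and 3, 9.43 and 9.80 on L-Myc 1 and 2, 9.85 and 9.98 on C-Myc 1 and 2, and 10.10 and 10.14 on N-Myc 1 and 2. All transduced arrays lay below all preSC arrays, with L-Myc lowest. Serpinb6a fell by 0.74 in L-Myc cells (SE 0.16, adjusted p = 0.0280), a 1.67-fold difference. The difference was -0.45 for C-Myc (SE 0.16, adjusted p = 0.0889) and -0.24 for N-Myc (SE 0.16, adjusted p = 0.303), neither of which passed. The L-Myc call was lost without preSC 1, 2 or 3 (-0.78, -0.81 and -0.64, adjusted p = 0.0711, 0.0640 and 0.0632), without L-Myc 1 (-0.56, adjusted p = 0.127) and without either N-Myc array (-0.74, adjusted p = 0.0586). It was also lost when each array was centred on the median of the genes tested (-0.60, adjusted p = 0.0505).

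Serpinb6e, a mouse relative from the same gene cluster, read 8.04, 8.03 and 8.04 on preSC 1, 2 and 3, 7.57 and 7.78 on L-Myc 1 and 2, 7.77 and 7.89 on C-Myc 1 and 2, and 7.76 and 7.78 on N-Myc 1 and 2. All transduced arrays lay below the preSC arrays, which hardly differed among themselves. The differences of -0.36 (L-Myc, SE 0.12, adjusted p = 0.0958), -0.21 (C-Myc, 0.257) and -0.27 (N-Myc, 0.142) did not pass. Its probe set, 1441918_x_at, carries the suffix Affymetrix gives to sets with probes that can match other sequences, so signal from a Serpinb6 relative cannot be told apart from its own.

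Serpinb9, an intracellular inhibitor of granzyme B that shields lymphocytes from their own granules, varied widely within 3 of the 4 groups. It read 5.85, 5.43 and 7.77 on preSC 1, 2 and 3, 4.93 and 6.91 on L-Myc 1 and 2, 4.33 and 6.77 on C-Myc 1 and 2, and 4.19 and 4.48 on N-Myc 1 and 2. The single highest arrays of those groups were preSC 3, L-Myc 2 and C-Myc 2, each about 2 log2 units above the rest of its group, while both N-Myc arrays were below the filter. The N-Myc arrays lay below all preSC arrays, but the difference of -2.02 (SE 0.96, adjusted p = 0.151) did not pass. The differences of -0.43 for L-Myc (adjusted p = 0.806) and -0.80 for C-Myc (adjusted p = 0.578) did not pass either. The second Serpinb9 probe set passed the filter on too few arrays to be tested and was highest, at 5.78, on preSC 3.

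Neuroserpin, Serpini1, is a secreted inhibitor of tissue plasminogen activator made by neurons and endocrine cells, and was the secreted serpin that lay far above the filter on every array. It read 10.01, 10.09 and 10.41 on preSC 1, 2 and 3, 9.67 and 10.57 on L-Myc 1 and 2, 9.02 and 10.64 on C-Myc 1 and 2, and 9.12 and 9.36 on N-Myc 1 and 2. The L-Myc and C-Myc arrays spread around the preSC values, and both N-Myc arrays lay below all preSC arrays. The N-Myc difference was -0.93 (SE 0.47, adjusted p = 0.170) and did not pass, and the differences for L-Myc and C-Myc were -0.05 and -0.34. In a fit of the N-Myc and preSC arrays alone the N-Myc difference passed (adjusted p = 0.00934), and it also passed in the full fit without either C-Myc array (adjusted p = 0.0440). On the second probe set, 1416702_at, the differences were 0.31, 0.14 and -0.36 in the same order of groups, so the sign of the L-Myc and C-Myc differences turns with the probe set.

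Serpina9, described in human germinal centre B cells, read 6.77, 6.58 and 4.34 on preSC 1, 2 and 3, 5.11 and 3.93 on L-Myc 1 and 2, 5.32 and 4.002 on C-Myc 1 and 2, and 4.87 and 4.76 on N-Myc 1 and 2. It was well above the filter only on preSC 1 and 2, and preSC 3 read like the transduced arrays. With all arrays, the differences of -1.37 (L-Myc, SE 0.77), -1.24 (C-Myc) and -1.08 (N-Myc) did not pass. Without preSC 3 they were -2.15, -2.02 and -1.86 and all passed (adjusted p = 0.0492, 0.0393 and 0.0440). That run leaves only preSC 1 and 2, which differed over 2-fold at just 47 probe sets. The gene passed the filter largely through those same arrays, so the run adds no support for a difference. The 7 leukocyte markers had array means of 4.93 to 5.60 in preSC, 5.15 to 5.79 in L-Myc, 5.21 to 5.99 in C-Myc and 5.66 to 5.70 in N-Myc, and 3 of the 7 passed the filter, though not Ptprc or the B cell marker Cd79a. Among the 3, Lyz2 read 9.31, 10.09 and 5.61 on preSC 1, 2 and 3, 10.99 and 6.44 on L-Myc 1 and 2, 12.31 and 6.76 on C-Myc 1 and 2, and 9.78 and 10.01 on N-Myc 1 and 2. Within preSC, L-Myc and C-Myc it was thus low on the same arrays as Serpina9, while on the N-Myc arrays it was high and Serpina9 was below the filter. The remaining leukocyte markers that passed did not share that pattern. Csf1r read 5.79 to 6.41 over the 9 arrays, with 5.79 on C-Myc 1 and 6.34 on C-Myc 2, and Cd3e read 6.03 to 6.70. The part of these markers in the Serpina9 values was not tested.

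The remaining serpins that passed the filter stayed within narrow limits on their brightest probe sets. Serpinf2, the circulating inhibitor of plasmin, read 6.13 to 6.84 over the 9 arrays, with differences from preSC of -0.19 for L-Myc, -0.01 for C-Myc and 0.22 for N-Myc, none of which passed. Serpina11 differed from preSC by -0.03, -0.08 and 0.26, also without passing. Serpina10, which with protein Z blocks clotting factor Xa, read 5.39 to 5.78. Serpinf1, the pigment epithelium-derived factor that inhibits no protease, read 5.78 to 6.16, with differences of 0.25, 0.21 and 0.17 that did not pass. Its second probe set, 1416168_at, was below the filter throughout, at 4.06 to 4.44 in preSC, 4.85 to 5.26 in L-Myc and C-Myc, and 4.45 and 4.54 in N-Myc. With the mean of both probe sets Serpinf1 rose by 0.52 in L-Myc (adjusted p = 0.0318) and by 0.42 in C-Myc cells (adjusted p = 0.0439). Serpinh1, the collagen chaperone of the endoplasmic reticulum, read 5.13 to 5.56, near the filter, and its probe set (1456733_x_at) carries the same suffix as that of Serpinb6e.

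**Figure D3:**
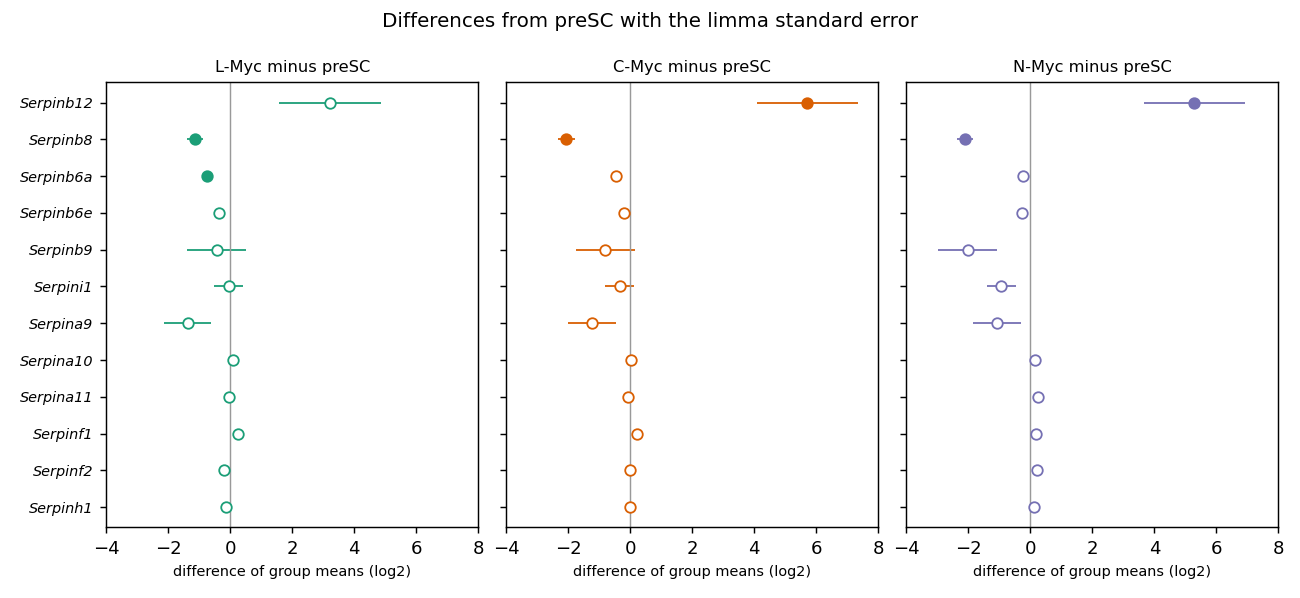
Differences of group means from preSC (log2) are plotted for the 12 serpin genes, with 1 panel per transduced group, bars of 1 limma standard error (hidden by the point where short) and filled points where the adjusted p is under 0.05. Serpinb12 lies furthest right and Serpinb8 is filled in all 3 panels (-1.13, -2.06 and -2.10).

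Counted by overlap of arrays, 4 of the 12 serpins had L-Myc arrays wholly above or below the preSC arrays, where 49.5% of all genes did. Of these serpins 1 lay above and 3 below, beside 22% and 27.5% of all genes. For C-Myc the count was 4 (52.4% of all genes), with 1 above and 3 below, beside 23.2% and 29.1%. For N-Myc it was 8 (65.6% of all genes), with 3 above and 5 below, beside 30.7% and 34.8%. With groups of 2 and 3 arrays such separation is common. The share of serpins separated lay below that of all genes for L-Myc and C-Myc and near it for N-Myc.

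Between the transduced groups no serpin passed, and 0% of all genes tested were called by limma in any of these 3 comparisons. At an unadjusted p under 0.05, C-Myc against N-Myc gave 0 serpins (4.17% of all genes), L-Myc against C-Myc 1 (4.64%) and L-Myc against N-Myc 2 (18.7%). Serpinb8 was 0.93 higher in L-Myc than in C-Myc (SE 0.29, unadjusted p = 0.0138, adjusted p = 0.830) and 0.97 higher in L-Myc than in N-Myc (SE 0.29, unadjusted p = 0.0114, adjusted p = 0.178). Without C-Myc 2 the first was 1.34 and passed (adjusted p = 0.0371), and without either C-Myc array the second passed (adjusted p = 0.0358). Serpinb6a was lower in L-Myc than in N-Myc by 0.50 (SE 0.18, unadjusted p = 0.0256, adjusted p = 0.210). The interval of the Serpinb8 difference between C-Myc and N-Myc ran from -0.64 to 0.72, and that of Serpinb12 from -3.76 to 4.61, so the latter bounds it only loosely. The mean difference of Serpinb12 between L-Myc and C-Myc was -2.49 (adjusted p = 0.844), which rested on L-Myc 1: without it L-Myc was 0.23 above C-Myc. By overlap of arrays, 3 serpins were separated between C-Myc and N-Myc (33.1% of all genes), 3 between L-Myc and C-Myc (26%) and 7 between L-Myc and N-Myc (55.2%).

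Serpinb12, Serpinb9, Serpini1 and Serpina9 had the widest differences between arrays of the same group. Among the serpins of narrow range such differences could also be as wide as those between groups, as for Serpinf2, with -0.40 between the L-Myc arrays beside a range of group means of 0.41. Serpinb12 was 3.60 higher on preSC 3 than on the mean of preSC 1 and 2, 5.43 higher on L-Myc 2 than on L-Myc 1, 0.80 higher on C-Myc 2 than on C-Myc 1, and 0.34 higher on N-Myc 2 than on N-Myc 1. Serpinb9 was higher on the same arrays by 2.12, 1.98, 2.44 and 0.29, and Serpini1 by 0.36, 0.90, 1.62 and 0.24. Serpina9 ran the other way, with differences of -2.34, -1.18, -1.31 and -0.11.

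Serpinb9 was thus the 1 serpin higher by over 1 on preSC 3, L-Myc 2 and C-Myc 2 than on the other arrays of their groups, as were 1.35% of all genes. Serpina9 was the 1 serpin lower by over 1 on all 3, as were 1.08% of all genes. By any amount, 6 serpins were higher on all 3 (24.3% of all genes) and 1 was lower (20.8%). The labels give no shared culture, day or batch for these arrays, and nothing in them marks preSC 3, L-Myc 2 and C-Myc 2 as alike. Markers of other cell types differed between the same arrays. Dcn, 1 of the 5 fibroblast markers tested, read 6.59, 6.86 and 9.32 on preSC 1, 2 and 3, 5.29 and 10.32 on L-Myc 1 and 2, 5.33 and 9.69 on C-Myc 1 and 2, and 5.70 and 5.46 on N-Myc 1 and 2. It was high where Serpinb9 was high, and Acta2, of narrow range, was also highest in its groups on preSC 3, L-Myc 2 and C-Myc 2. The fibroblast markers Thy1 and Pdgfra went the other way and were lowest in their groups there, and Pdgfrb kept to neither direction. Thy1 read 3.97, 4.22 and 4.17 on those 3 arrays and 5.04 to 6.49 on the other 6. Lyz2 and the alveolar marker Sftpc were also lowest in their groups on preSC 3, L-Myc 2 and C-Myc 2. Sftpc read 6.06, 6.43 and 6.17 on those 3 arrays and 7.77 to 11.10 on the other 6. The mean of the 10 fibroblast markers was 5.19 to 5.31 in preSC, 5.08 to 5.32 in L-Myc, 4.94 to 5.37 in C-Myc and 4.99 to 5.11 in N-Myc, and Col1a1, Col1a2 and Col3a1 were below the filter. The part of these cell types in the serpin values was not tested. These 3 arrays were set side by side because their values had been seen, so the counts are a description.

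**Figure D4:**
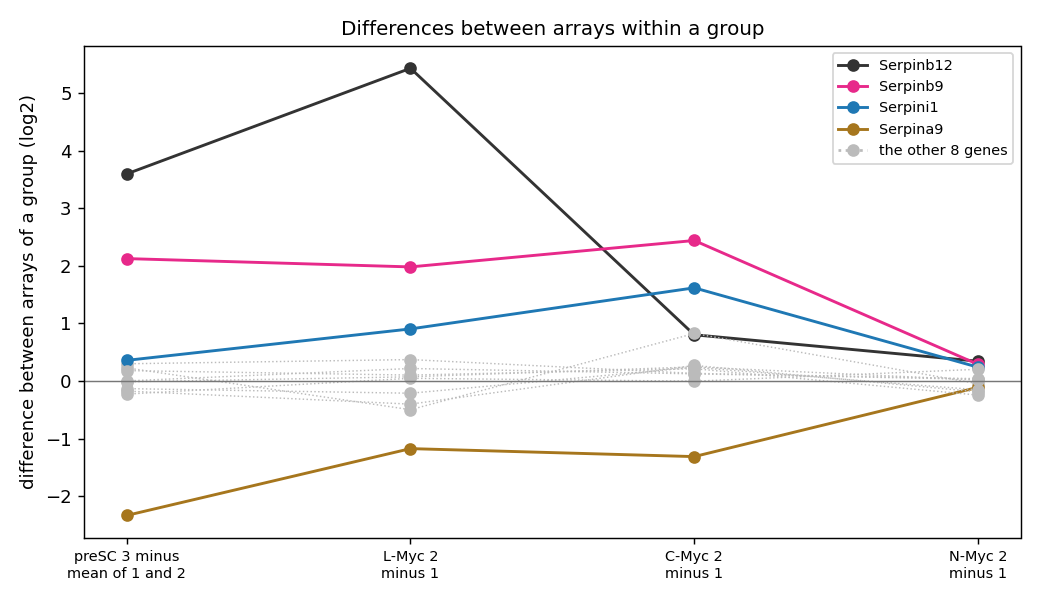
Differences between arrays of 1 group (log2) are plotted for the 12 serpin genes by group, with lines that only join the points of a gene. Serpinb12 and Serpinb9 lie above 0 and Serpina9 below 0 throughout, and all genes lie near 0 for the N-Myc pair.

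Serpinb12 and Serpinb8, which moved in opposite directions, lie in the same clade b cluster on mouse chromosome 1. In RefSeq order the 12 serpins of that cluster run from Serpinb5 to Serpinb8, with Serpinb12 next to Serpinb5. Of these 12, 2 were tested, 5 were below the filter and 5 had no single-symbol probe set here. Beyond Serpinb5 lie Vps4b, an ATPase of membrane scission, Kdsr, a sphingolipid enzyme, and Bcl2, the apoptosis inhibitor. Vps4b fell by 0.60 in N-Myc cells (SE 0.18, adjusted p = 0.0455), and neither Kdsr (0.52, 0.56 and 0.31 for L-Myc, C-Myc, then N-Myc) nor Bcl2 (-0.62, -0.63 and -0.51) passed. No other tested gene of this stretch rose in any comparison with preSC. On the far side of Serpinb8, Dsel, named for its likeness to dermatan sulfate epimerase, fell by 3.67 in N-Myc cells (SE 0.86, adjusted p = 0.0201). Its difference was -2.45 in C-Myc cells (adjusted p = 0.0779), where it read 5.11 and 8.66 on C-Myc 1 and 2. Cdh7, a cadherin next to Serpinb8, had differences of -0.58, -2.17 and -2.70 that did not pass. It read 7.93, 7.89 and 4.82 on preSC 1, 2 and 3, so single arrays did not all share these falls.

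The second clade b cluster, on chromosome 13, holds 16 serpins, of which 3 were tested, 8 were below the filter and 5 had no single-symbol probe set here. Serpinb9, Serpinb6e and Serpinb6a are the 3 tested. Beyond Serpinb6a, past Nqo2 and Ripk1, Bphl, a hydrolase, fell by 1.07 in L-Myc cells (SE 0.24, adjusted p = 0.0299), the comparison in which Serpinb6a fell. Nqo2 lies next to Serpinb6a and differed by -0.20, 0.22 and 0.53 without passing, and Gmds, at the other end, rose by 0.68 in N-Myc cells (SE 0.19, adjusted p = 0.0359). Serpini1 on chromosome 3 is the head-to-head neighbour of Pdcd10, a gene of vascular stability, whose differences from preSC were 0.20, 0.26 and -0.02 and did not pass.

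**Figure D5:**
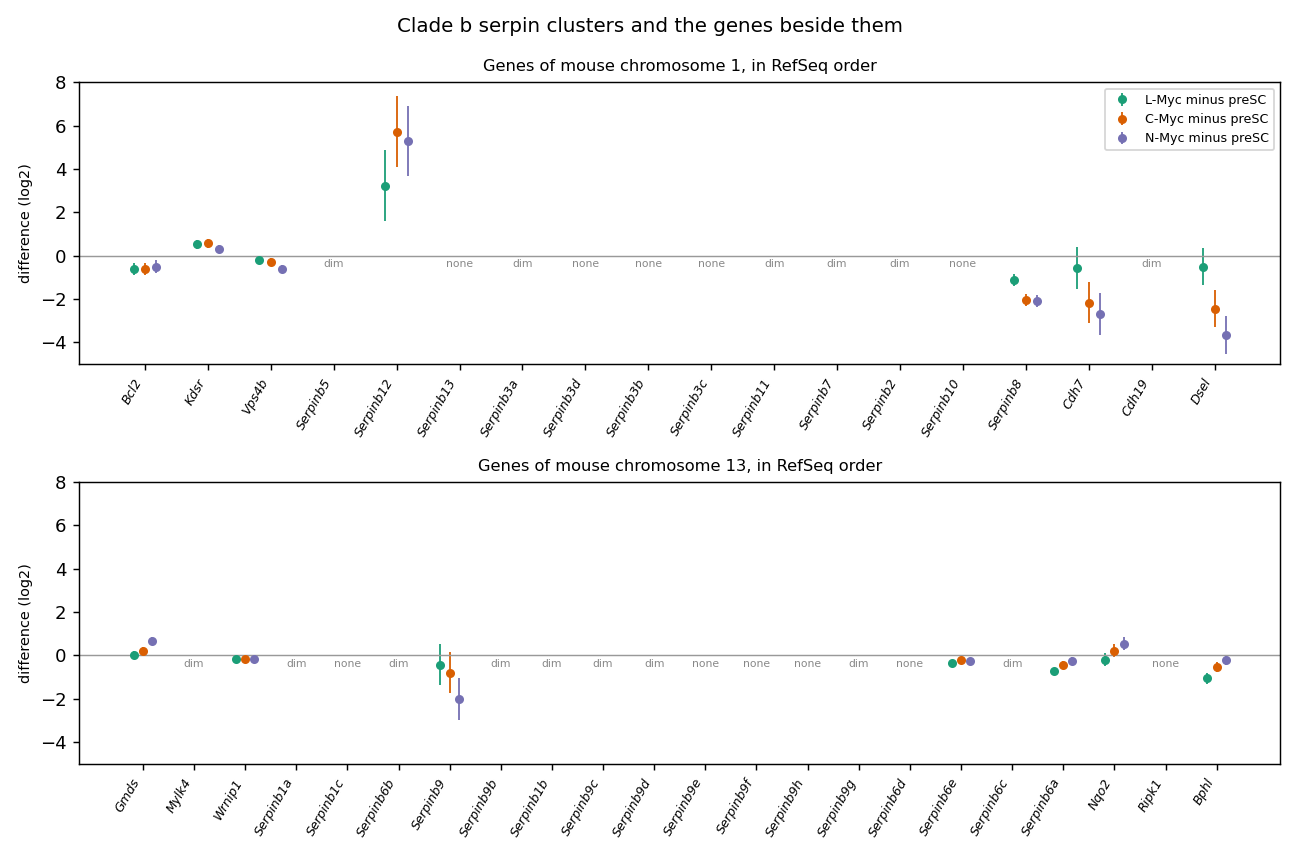
Differences from preSC (log2, bars of 1 limma standard error) are plotted for the genes of the chromosome 1 and chromosome 13 clade b clusters and their flanking genes, evenly spaced in RefSeq order; "dim" marks genes below the filter and "none" genes with no single-symbol probe set here. Serpinb12 stands high beside genes that are dim, near 0 or without a single-symbol probe set here, and Serpinb8, Cdh7 and Dsel lie below 0.

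Most genes listed for the proteases that secreted serpins meet, with their receptors and cofactors, were below the filter or did not pass the test. Of 26 listed genes of plasminogen activation and coagulation, 12 were tested, and 1 fell in each comparison with preSC, with none higher, where 8.03%, 13.6% and 16.4% of all genes were called lower in L-Myc, C-Myc, then N-Myc cells. It was F5, clotting factor V, which read 10.30 to 11.28 in preSC and 8.31 to 9.27 in the transduced arrays. F5 fell in all of them, with differences of -2.01, -2.08 and -1.56 in the order L-Myc, C-Myc, N-Myc (SE 0.32, adjusted p = 0.0111, 0.00666 and 0.0138). Plat, the tissue plasminogen activator that neuroserpin inhibits, read 6.50 to 8.14 in preSC and 5.36 to 7.31 in the transduced arrays, and its differences of -1.14, -1.03 and -1.16 (SE 0.72) did not pass. Plau and F2 (prothrombin) were below the filter. The median difference of the list was -0.45, -0.03 and -0.02 in that order, beside -0.04, -0.05 and -0.03 over all genes.

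Of 20 listed granzymes and leukocyte proteases, 3 were tested and none passed, and Gzmb (granzyme B), Gzma, Elane (neutrophil elastase) and Ctsg (cathepsin G), the textbook targets of clade b and clade a serpins, were all below the filter. Of 14 membrane and secreted trypsin-like proteases tested, 1 changed, Klk1, which rose by 0.43 in N-Myc cells (SE 0.13, adjusted p = 0.0425), where 12.5% of all genes rose.

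Of 12 cathepsins and caspases tested, 1 rose in L-Myc (5.44% of all genes), 1 fell in C-Myc (13.6%) and 4 fell in N-Myc cells (16.4%). Some clade b serpins can trap some of these proteases, but the list was not limited to such targets. Ctse rose by 1.40 in L-Myc cells (SE 0.32, adjusted p = 0.0311), and Ctsf fell by 1.11 in C-Myc cells (SE 0.25, adjusted p = 0.0192). In N-Myc cells the falls included Ctsz (-7.88, SE 1.95, adjusted p = 0.0236), Ctsc (-3.30, SE 0.71, adjusted p = 0.0152) and Ctso (-3.10, SE 0.85, adjusted p = 0.0331). Ctsz, a lysosomal carboxypeptidase, read 11.81 to 12.27 in preSC, 12.34 and 11.94 on L-Myc 1 and 2, 3.69 and 11.90 on C-Myc 1 and 2, and 4.20 and 3.97 on N-Myc 1 and 2. It was at background on C-Myc 1 and both N-Myc arrays and high on all others. Serpinb8, Serpinb9 and Serpini1 had their lowest values on the same 3 arrays. Serpinb8 was also below every preSC array on L-Myc 1 and 2 and C-Myc 2 (6.38, 5.88 and 5.62), where Ctsz was high. Serpinb9 was also below the filter on L-Myc 1 (4.93), where Ctsz was highest.

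Among 13 receptors and cofactors that clear or anchor serpins, 1 fell in L-Myc cells, 1 rose and 3 fell in C-Myc cells, and 1 rose and 4 fell in N-Myc cells, where 13.5%, 23.5% and 28.8% of all genes were called. The median difference of the list was -0.31, -0.64 and -0.79, against medians of -0.04, -0.05 and -0.03 over all genes. Itgav, the integrin subunit of vitronectin receptors, fell in all 3 groups, with differences of -1.75, -2.31 and -2.43 in the same order (SE 0.37, adjusted p = 0.0242, 0.00717 and 0.00571). Sdc1, a heparan sulfate carrier, rose by 0.76 in C-Myc and 0.75 in N-Myc cells (SE 0.16, adjusted p = 0.0155 and 0.0144), whereas its relative Sdc2 fell by 2.49 in N-Myc cells (SE 0.63, adjusted p = 0.0250). Lrpap1, the chaperone of the receptors that take up serpin complexes, differed by -0.79 and -0.80 in C-Myc and N-Myc cells and fell in both (SE 0.23, adjusted p = 0.0416 and 0.0357).

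Of 27 listed protease inhibitors of other families, 17 were tested. In L-Myc cells 1 rose and 3 fell, in C-Myc cells 2 rose and 5 fell, and in N-Myc cells 1 rose and 6 fell. Of all genes tested, 13.5% were called for L-Myc, 23.5% for C-Myc and 28.8% for N-Myc. Spock2, a testican proteoglycan, rose in all 3 groups, by 1.53, 1.98 and 1.99 in that order (SE 0.14, adjusted p = 0.00289, 0.00108 and 0.00137). Its relatives Spock1 and Spock3 fell, with differences of -2.84 and -2.00 in C-Myc cells (adjusted p = 0.0126 and 0.0322) and of -3.49 and -2.94 in N-Myc cells (adjusted p = 0.00635 and 0.00883). In L-Myc cells the Kunitz inhibitor Spint1 fell by 1.99 (SE 0.52, adjusted p = 0.0447) and the cystatin Cst6 fell by 1.96 (SE 0.49, adjusted p = 0.0407). Cst6 fell in the other groups too, with differences of -2.35 in C-Myc (adjusted p = 0.0161) and -2.23 in N-Myc cells (adjusted p = 0.0168). Spint2 also fell in all 3 groups, with differences of -1.37, -1.46 and -1.22 in the order L-Myc, C-Myc, N-Myc (adjusted p = 0.0072, 0.0041 and 0.0060). Wfdc2 fell by 6.96 in N-Myc cells (SE 1.69, adjusted p = 0.0223), with 10.98 to 12.74 in preSC, 4.48 and 10.87 on C-Myc 1 and 2, and 4.67 and 4.70 on the N-Myc arrays.

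Of 18 collagen maturation genes tested beside Serpinh1, 1 fell in L-Myc cells (Col4a2, by 0.95, SE 0.25, adjusted p = 0.0489), none passed in C-Myc cells, and 1 rose and 3 fell in N-Myc cells, beside 13.5%, 23.5% and 28.8% of all genes called. In N-Myc cells Lox rose by 0.83 (SE 0.24, adjusted p = 0.0372), Col4a2 fell by 1.27 (SE 0.25, adjusted p = 0.0122) and the prolyl hydroxylase P4ha2 fell by 1.20 (SE 0.29, adjusted p = 0.0219). The fibrillar collagens Col1a1, Col1a2 and Col3a1, the main clients of Serpinh1, were below the filter.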

How the data were processed

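Gene expression was measured on 9 Affymetrix mouse arrays, grouped by sample title. The authors deposited 1 log2 value per probe set and array, processed by RMA (package affy under R 3.0.1) per the submitters' processing notes; no source used here gives the affy version. RMA brings all arrays to a common distribution, so a shift shared by all transcripts cannot be seen, and it compresses differences between dim probe sets. Array medians lay between 6.02 and 6.07, and no further scaling was applied. The number of arrays limits the precision.

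Of 45101 probe sets, 34958 had 1 symbol in the platform annotation, 932 had several and were left unnamed, and 9211 were not listed there; 64 are Affymetrix controls. By Entrez identifier 34754 matched a RefSeq gene table (GRCm38.p6), and no symbol changed. Promoter windows came from RefSeq on the same assembly.

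Group means were fitted in limma 3.58.1 by lmFit and eBayes (R 4.3.3) to all 9 arrays and 12976 genes, with 5 residual degrees of freedom, and adjusted p-values are Benjamini-Hochberg over those genes. The procedure was tested on simulated data. The p-values rest on the spread among these arrays only, which the series' design text calls biological replicates. Alternatives changed the probe set of a gene, the filter, the scaling, the model or the arrays, 1 at a time. Serpins called in any comparison were named with every array value, as were the 6 uncalled ones with the widest range between group means, and per list up to 3 called genes with the largest differences. Neighbouring genes, Plat, Spint2, Serpinf1's second probe set, the markers of other cell types and the list genes shown as below the filter were named outside that rule, after their values were seen. The members and the gene lists were chosen with earlier results of these data known.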

Additional observations from a re-analysis of the deposited data

How the results depend on the processing

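The alternatives were run on the serpin counts and on the 9 serpins named with differences, not on the neighbouring genes or the other lists. Serpinb8 against preSC in C-Myc and N-Myc cells kept its direction and its call except when preSC 1 and 2, and N-Myc 1 and 2, were each averaged to 1 sample (adjusted p = 0.0623 and 0.141). That setting leaves 3 residual degrees of freedom, and it called 0 serpins in L-Myc, 0 in C-Myc and 0 in N-Myc against preSC, where the full fit called 2, 2 and 2, and at most 2 of all genes in any of these. With the second-brightest probe set 3 serpins were tested, and Serpinb6a, which has 1 probe set, was not among them. Against preSC in L-Myc cells, Serpinb8 was the 1 serpin called in that setting, with centred arrays and with only the groups compared. The mean of all probe sets called 3 there (Serpinb6a, Serpinb8 and Serpinf1) and 3 in C-Myc cells (Serpinb12, Serpinb8 and Serpinf1). With no filter, Serpina3n was also called in C-Myc and N-Myc cells and Serpinb9b in N-Myc cells. Leaving out 1 array at a time gave 0 to 2 serpins for L-Myc, 1 to 3 for C-Myc and 1 to 3 for N-Myc against preSC. It gave 0 to 1 for L-Myc against C-Myc and for L-Myc against N-Myc, and 0 for C-Myc against N-Myc. Serpinb12 against preSC lost its call with no filter, in C-Myc (adjusted p = 0.0526) and N-Myc cells (0.0576), and with close arrays averaged (0.197 and 0.340).

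The labels name nothing shared by same-numbered arrays, so the main fit did not pair samples by replicate number. Deviations of same-numbered arrays from their group means correlated from -0.68 to 0.65, over 0.1 in 9 of 12 pairs. Of 8 arrays numbered 1 or 2, 6 correlated best with an array of their own number. In a group of 2 arrays the deviations mirror each other, so these correlations repeat values and cannot decide whether the samples are paired. The fit with the replicate number as a block sets preSC 3 alone in its block, so its differences from preSC equal those without preSC 3. It called 1, 3 and 3 serpins for L-Myc, C-Myc and N-Myc against preSC. In L-Myc it called Serpina9 (-2.15, adjusted p = 0.0302) and neither Serpinb8 (-1.05, 0.0917) nor Serpinb6a (-0.64, 0.0692). In C-Myc and N-Myc it called Serpinb12 and Serpinb8 and also Serpina9 (-2.02 and -1.86, adjusted p = 0.0226 and 0.0241).

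Signs turned as follows, mostly for small differences, and the cause was not tested. With 1 array left out at a time, Serpinb12 ran from -5.20 to 0.23 in L-Myc against C-Myc and from -4.78 to 0.65 in L-Myc against N-Myc (both highest without L-Myc 1), and Serpinb8 from -0.37 (without C-Myc 2) to 0.45 in C-Myc against N-Myc. Against preSC, the same runs gave Serpinb9 from -1.42 to 0.56 in L-Myc (0.28 without preSC 3, 0.56 without L-Myc 1) and from -2.02 to 0.42 in C-Myc (highest without C-Myc 1). Serpini1 ran from -0.50 to 0.40 in L-Myc (0.07 without preSC 3, 0.40 without L-Myc 1) and from -1.14 to 0.47 in C-Myc (highest without C-Myc 1). Serpinf2 ran from -0.39 to 0.013 in L-Myc (highest without L-Myc 2) and from -0.14 to 0.13 in C-Myc, where it was above 0 without preSC 1, preSC 2 or C-Myc 1. Serpina11 ran from -0.15 to 0.093 in L-Myc (above 0 without preSC 1 or L-Myc 1) and from -0.20 to 0.047 in C-Myc (above 0 without preSC 1 or C-Myc 1). With the replicate block Serpinb9 was 0.28 and Serpini1 0.072 in L-Myc. With centred arrays Serpini1 was 0.095 in L-Myc, Serpinf2 0.16 in C-Myc, and Serpina11 0.11 in L-Myc and 0.092 in C-Myc. Serpini1 was 0.12 in L-Myc with the mean of probe sets, and 0.31 in L-Myc and 0.14 in C-Myc with the second probe set. Serpinf2 was 0.023 in C-Myc with close arrays averaged. Of the other recomputed single differences, 545 kept direction and side of the threshold, 37 lost a call and 12 gained one.

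Groups of 2 and 3 arrays leave the spread poorly known, and dim probe sets bound low levels only loosely.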
